A study of Mus musculus with 14 samples.

Results

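The mitochondrial carrier family was taken from the gene-level count table as every row whose symbol starts with Slc25a followed by a digit. This gave 47 genes of 24091. Of these, 38 had enough reads to be among the 12248 genes tested, and 9 did not. The RNA came from T cells sorted from the spleens of 2 groups of C57Bl/6j mice with a chronic myeloid leukemia (CML) model, with 200000 cells per sample. The chronic phase group (CP CML, n = 8 mice) was Mir142+/+BCR-ABL. The blast crisis group (BC CML, n = 6 mice) was Mir142-/-BCR-ABL and so lacked the microRNA gene Mir142. Mice of both groups were male and female, 6 to 10 weeks old, untreated otherwise, and carried the SCLtTA/BCR-ABL transgene, in which tetracycline was withdrawn for 3 weeks to switch on BCR-ABL. The Scl-driven transactivator places the oncogene in primitive blood cells, and the Mir142 knockout was not limited to T cells, so effects within the T cells and effects of the diseased animal around them cannot be told apart. All CP CML libraries carry one number prefix in their names and all BC CML libraries another, and no source used here says what the prefixes mean, so whatever they mark cannot be told apart from the genotype.

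Mitochondrial carriers are small proteins of the inner mitochondrial membrane, built from 3 repeats of a similar segment, that exchange one metabolite for another across that membrane. They move ADP and ATP, phosphate, keto acids, amino acids, acylcarnitines, iron, glutathione and cofactors, and thereby tie the matrix enzymes to the cytosol. A resting T cell runs largely on mitochondrial oxidation, and an activated T cell draws on citrate export, aspartate export and mitochondrial one-carbon metabolism for growth. In GENCODE vM21 the longest coding sequences of the 47 genes ranged from 795 to 2031 bases with a median of 954. The longest belonged to Slc25a12 (2031 bases) and Slc25a13 (2028 bases), calcium-binding carriers that have an extra domain in front of the carrier fold. The genes lie on 19 different chromosomes.

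The libraries held 15703702 to 19914531 reads in CP CML and 16145537 to 19399720 in BC CML. Mir142 itself had 302 to 650 reads in each CP CML library and 0 reads in every BC CML library, as the labels state. T cell defining genes summed to 2822 to 3209 normalized CPM (reads scaled to the TMM-adjusted total of the tested genes) in CP CML and 3454 to 3839 CPM in BC CML, and none of the 7 in the table was at 0 in either group. Other cell markers moved with the group. The 12 myeloid markers summed to 70.7 to 446 CPM in CP CML and 539 to 1340 CPM in BC CML, with 10 of 12 higher (83.3% against 32.6% of all genes). The 7 B cell markers summed to 36.1 to 135 CPM against 68.4 to 379.6 CPM, with 6 higher (85.7% against 32.6%). The 11 erythroid markers summed to 156 to 204 CPM against 190 to 247 CPM, with 6 of 10 tested higher (60% against 32.6% of all genes) and most of the sum from Tfrc, which T cells also express. No defining marker of these 3 lists had a group mean of 0. Within the T cells, all 6 naive T cell markers fell, against 32.7% of all genes (summed 4468 to 5788 CPM against 2400 to 3533 CPM). Of the 7 T cell defining genes, Cd8a and Cd3g rose, Cd4 and Cd247 fell, and Cd3d, Cd3e and Cd8b1 did not pass (57.1% called, near the 65.2% of all genes). The part of these shifts in the carrier results was not tested, and in bulk RNA fewer cells of a type and less RNA per cell cannot be told apart.

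Mir142 gives 2 mature microRNAs, and both are printed because their loss defines the BC CML group. The seed, bases 2 to 8, is in capitals (RefSeq, GRCm38.p6, chromosome 11, plus strand). A microRNA pairs through this seed with sites that are mostly in the 3′ untranslated region (3′UTR) of an mRNA and lowers that mRNA.

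mmu-miR-142a-3p: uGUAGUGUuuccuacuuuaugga
mmu-miR-142a-5p: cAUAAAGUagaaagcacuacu

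The longest GENCODE 3′UTR of each gene was searched on the transcript strand for the match to seed bases 2 to 8 (ACACTAC for 3p, ACTTTAT for 5p), for that match followed by A (8mer) and for the match to bases 2 to 7 followed by A (CACTACA for 3p, CTTTATA for 5p). A 3p match was present in 5 of the 38 tested carriers (13.2%) and in 12.1% of 11523 tested genes with a 3′UTR. A 5p match was present in 11 of 38 (28.9%) against 23.4%. The windows below show the 5 carriers with a 3p match and the 4 carriers with a 5p match whose RNA differed between the groups, with the match in capitals and GRCm38 positions of the match.

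Slc25a24, 3p, chr3:109166639-109166645, plus strand: tagccgtgatCACTACAagcctttggg
Slc25a51, 3p, chr4:45397940-45397946, minus strand: aatgctgtccCACTACActccagcctt
Slc25a26, 3p, chr6:94603675-94603682, plus strand: tgaagcagACACTACAtgtccttgca
Slc25a1, 3p, chr16:17925637-17925643, minus strand: tgtgtgtgtaACACTACcattgtatct
Slc25a22, 3p, chr7:141429936-141429942, minus strand: cttcccagtgACACTACctggggctcc
Slc25a53, 5p, chrX:136981742-136981748, minus strand: accccatataACTTTATgcatatcatt
Slc25a4, 5p, chr8:46207167-46207173, minus strand: tactcaatacACTTTATctccctgccc
Slc25a32, 5p, chr15:39094546-39094552, minus strand: ctatatctacACTTTATttgggtatct
Slc25a44, 5p, chr3:88411141-88411147, minus strand: cacttcctgcACTTTATtgagagagcc

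Of the 5 carriers with a 3p match, 2 were higher in BC CML (Slc25a24 and Slc25a51) and 3 did not pass the test, including Slc25a26, the only one with an 8mer. The match in both that rose was CACTACA, and in Slc25a1 and Slc25a22, which did not pass, it was ACACTAC. Of the 11 with a 5p match, 1 was higher (Slc25a53), 3 were lower and 7 did not pass. For comparison, 32.6% of all tested genes were higher, 32.7% were lower and 65.2% passed in either direction. The median log2 fold change of the carriers with a match was 0.088 for 3p and -0.118 for 5p. Over all genes, it was 0.155 with a 3p match and -0.0232 without, and 0.0496 with a 5p match and -0.0198 without; for the 8mers alone it was 0.226 (3p) and 0.0478 (5p). The Slc25a4 match lies in the GENCODE 3′UTR but outside the listed range of the counted gene (chr8:46207341-46211009). All these matches are descriptions of the letters, and no binding was measured.

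Between the groups, 6 carriers rose in BC CML, 11 fell and 21 did not pass the test, and the 2 with the largest rise, Slc25a24 and Slc25a53, had BC CML means 2.02 and 1.98 times those of CP CML. By the quasi-likelihood F test of edgeR, adjusted over all tested genes by the Benjamini-Hochberg procedure, 17 of 38 carriers (44.7%) passed an adjusted p of 0.05, below the 65.2% of all tested genes. Of the 38 tested, 6 were higher in BC CML (15.8%, against 32.6% of all genes) and 11 were lower (28.9%, against 32.7%). In 10 carriers (26.3%, against 36.9% of all genes) the mice of the groups did not overlap, with BC CML above CP CML in 4 and below in 6. The median absolute log2 fold change was 0.17 for the carriers and 0.28 for all genes, and 4 carriers (10.5%) against 29.7% of all genes differed by at least 0.5. The median signed log2 fold change was -0.10 for the carriers and -0.01 for all genes.

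**Figure D1:**
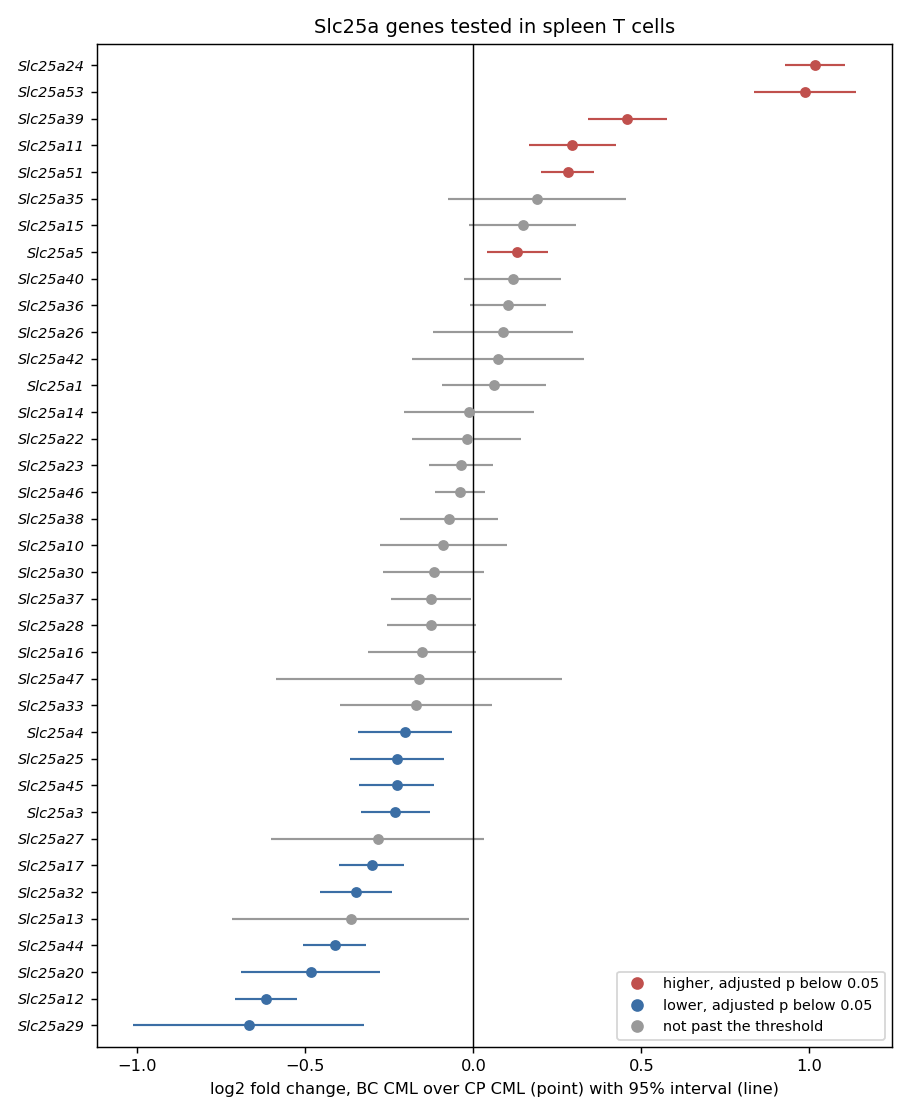
Log2 fold change of BC CML over CP CML (x axis) for 37 of the 38 tested Slc25a genes (y axis, in order of the change), with points for estimates and lines for 95% intervals from edgeR; red is higher, blue lower and grey not past the threshold. Slc25a24 and Slc25a53 stand near 1, and Slc25a29 and Slc25a12 are the lowest at -0.67 and -0.62.

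The family's total did not separate the groups. Carriers took 0.187% to 0.205% of all reads in CP CML and 0.185% to 0.199% in BC CML. Summed per kilobase of listed gene length, their levels ran from 710 to 786 normalized CPM per kb in CP CML and from 703 to 773 in BC CML, so the ranges overlapped. Levels of different genes are compared only per kb. Ranked by the mean over all mice, the ADP/ATP carrier Slc25a5 was highest, with mean levels of 212 (CP CML) and 232 (BC CML) normalized CPM per kb. Next came the phosphate carrier Slc25a3 at 83.5 and 71.1 and the ADP/ATP carrier Slc25a4 at 60.7 and 52.7. Then came the oxoglutarate carrier Slc25a11 at 33.2 and 40.8 and the NAD carrier Slc25a51 at 23.8 and 28.9. In CP CML alone, Slc25a12 (27.3) and Slc25a17 (24.9) lay above Slc25a51. Slc25a5, Slc25a3 and Slc25a4 made up 46.5% to 50.2% of the summed level in every mouse, counted over both groups. Among the tested carriers the mean level in CP CML spanned 0.446 normalized CPM per kb (Slc25a47) to that of Slc25a5, with a median of 10.7. Spread between mice was modest, with a median coefficient of variation of 8.79% in CP CML and 7.86% in BC CML.

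**Figure D2:**
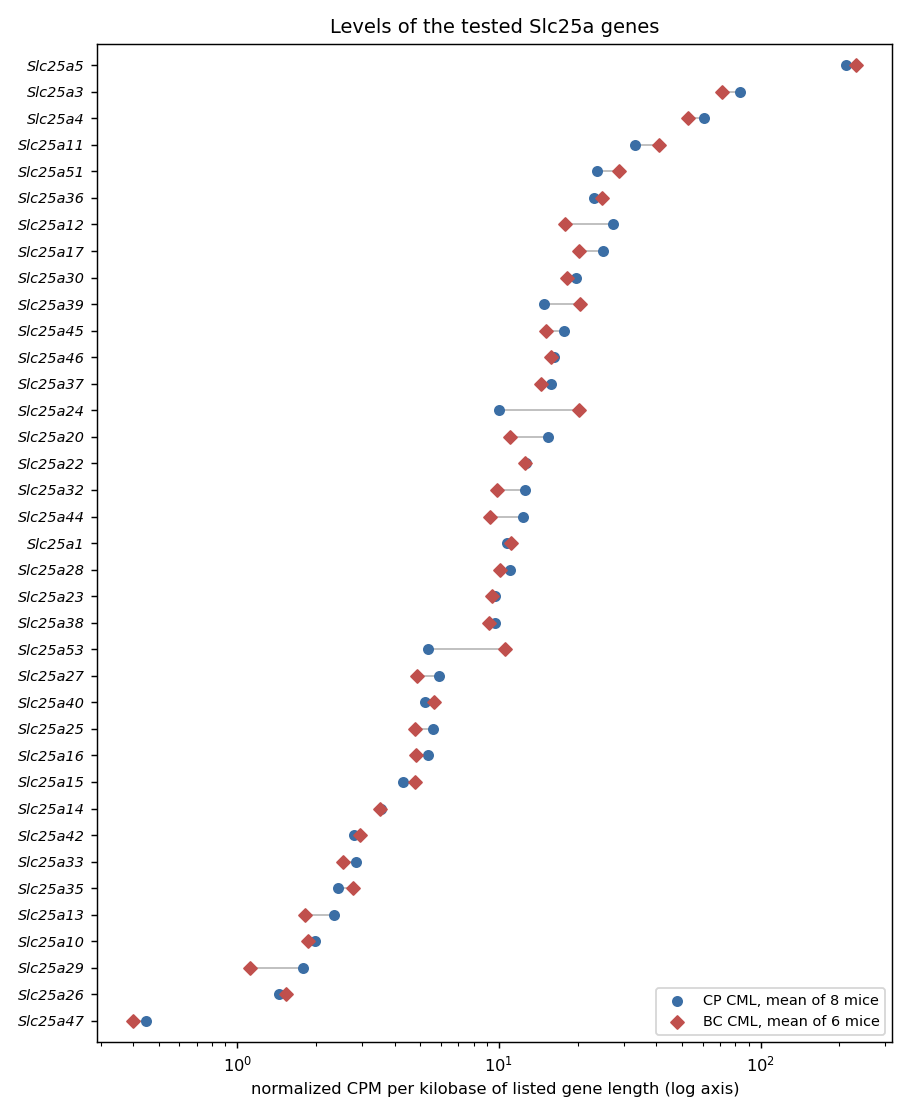
Mean normalized CPM per kilobase (x axis, log scale) of 37 tested Slc25a genes (y axis) in 8 CP CML mice (blue circles) and 6 BC CML mice (red diamonds), joined by a grey line. Slc25a5, Slc25a3 and Slc25a4 lead in both groups, and the longest lines belong to Slc25a24 and Slc25a53.

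The adenine nucleotide and phosphate carriers included Slc25a24, 1 of the 2 carriers that about reached a log2 fold change of 1, and the 3 members with the highest levels per kb. Of 6 tested, 2 rose (Slc25a24 and Slc25a5) and 3 fell (Slc25a3, Slc25a4 and Slc25a25), or 83.3% called against 65.2% of all genes. Slc25a24 (chr3:109123149-109168409, mm10) is a calcium-regulated carrier that exchanges ATP-Mg for phosphate and so sets the size of the matrix adenine nucleotide pool. Its lowest, median and highest values were 32.0, 33.2 and 37.1 normalized CPM in CP CML and 63.5, 68.3 and 73.0 in BC CML. Every BC CML mouse lay far above every CP CML mouse. The mean rose from 33.7 ± 1.73 (SD, n = 8) to 68.1 ± 3.05 (SD, n = 6), a 2.02-fold difference (log2 fold change 1.02, SE 0.04, adjusted p = 1.3e-12). An absolute log2 fold change of at least 1, in either direction, was reached by 13.0% of all genes. Which of Slc25a24 and Slc25a53 was higher depended on the samples used: over replicates 1 to 6 of each group with no block the values were 1.03 for Slc25a24 and 1.05 for Slc25a53.

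Its relatives with the same cargo are Slc25a23, Slc25a25 and Slc25a41. Slc25a25, also calcium-regulated, ran from 21.1 to 27.5 normalized CPM (median 23.6) in CP CML and from 18.05 to 23.6 (median 20.1) in BC CML, with overlapping groups. Its log2 fold change was -0.23 (SE 0.07, adjusted p = 0.00652). Slc25a23 had means of 49.8 ± 1.90 and 48.5 ± 3.40 normalized CPM, and the 95% interval of its log2 fold change ran from -0.13 to 0.06 (adjusted p = 0.489). Slc25a41 had 1 read in all 14 libraries.

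The ADP/ATP carriers export ATP made by oxidative phosphorylation, and Slc25a3 imports the phosphate for it. Slc25a5 had lowest, median and highest values of 255, 271 and 301 normalized CPM in CP CML and 280, 295 and 325 in BC CML. The groups overlapped, and the rise was small (log2 fold change 0.13, SE 0.04, adjusted p = 0.0137). Slc25a4 ran from 82.4 to 106 (median 94.2) in CP CML and from 68.4 to 93.1 (median 79.9) in BC CML, overlapping as well, with a log2 fold change of -0.20 (SE 0.07, adjusted p = 0.0123). Their GENCODE coding sequences have the same length of 894 bases, are identical at 77.4% of positions and share no identical stretch longer than 20 bases. Slc25a3 fell from a range of 397 to 477 normalized CPM (median 424) to 338 to 396 (median 361). Its groups did not overlap, though the closest mice lay next to each other, and the log2 fold change was -0.23 (SE 0.05, adjusted p = 0.000429). The testis-type ADP/ATP carrier Slc25a31 had 5 reads over all libraries.

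**Figure D3:**
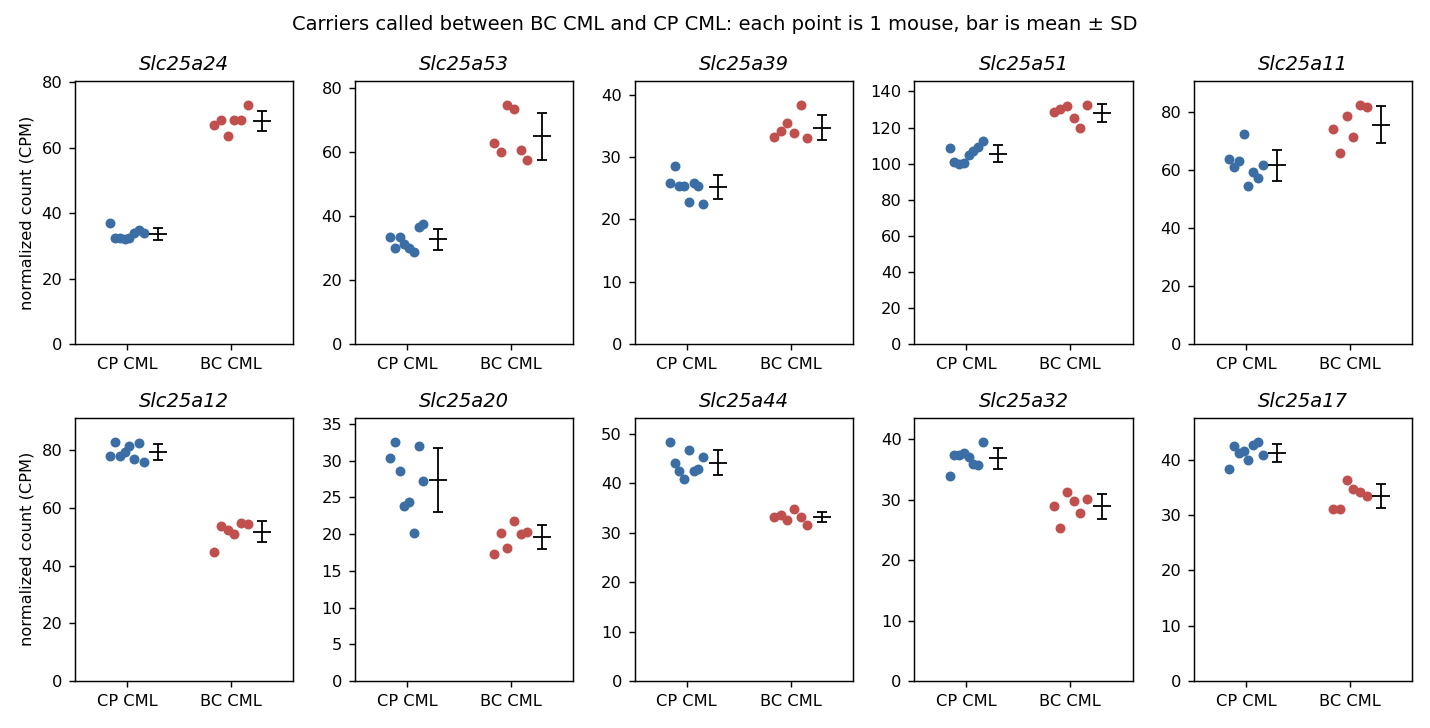
Normalized counts (CPM, y axis from 0) of 10 carriers that passed the test, with 1 point per mouse for 8 CP CML and 6 BC CML mice and black bars for mean ± SD; each panel has its own y axis. Groups are fully apart in Slc25a24, Slc25a53, Slc25a39, Slc25a51, Slc25a12, Slc25a44, Slc25a32 and Slc25a17 and overlap in Slc25a11 and Slc25a20.

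No amino acid carrier passed the test as higher. Of 7 tested, 3 fell (Slc25a12, Slc25a29 and Slc25a44) and 4 did not pass. The share called was 42.9%, against 65.2% of all genes. As every call was lower, 42.9% of the 7 tested were lower, against 32.7% of all genes. The median log2 fold change was -0.36 against -0.01 for all genes. Slc25a12 (chr2:71274295-71367554) is the calcium-activated aspartate-glutamate carrier of the malate-aspartate shuttle, which moves reducing equivalents into mitochondria and exports aspartate. Its values were 76.0, 78.7 and 83.0 normalized CPM (lowest, median, highest) in CP CML and 44.9, 53.0 and 54.6 in BC CML. A wide gap separated the groups. The mean fell from 79.4 ± 2.63 to 51.8 ± 3.69, or by 34.8% (log2 fold change -0.62, SE 0.04, adjusted p = 1.4e-09). Slc25a13, the other aspartate-glutamate carrier, was far lower per kb (2.34 against 27.3 for Slc25a12 in CP CML). It ran from 5.51 to 9.07 normalized CPM (median 7.38) in CP CML and from 3.80 to 8.56 (median 5.34) in BC CML, and its log2 fold change of -0.36 (SE 0.17) did not pass (adjusted p = 0.064). Its BC CML mice spread widely, and without BC CML replicate 5 the value was -0.53 (adjusted p = 0.0060). That library is the only one with a letter suffix (RP) in its name, and no source used here says what it means.

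Slc25a44 and Slc25a29 are named here after their values were seen. Slc25a44, the branched-chain amino acid carrier, had 40.9, 43.5 and 48.4 normalized CPM (lowest, median, highest) in CP CML and 31.6, 33.2 and 34.9 in BC CML. The groups did not overlap, and the log2 fold change was -0.41 (SE 0.04, adjusted p = 3.02e-07). Slc25a29, a carrier of basic amino acids, was low, with 2.76, 3.33 and 4.40 normalized CPM in CP CML and 1.62, 2.13 and 2.77 in BC CML. Its ranges met at their edge, and its log2 fold change of -0.67 was imprecise (SE 0.16, 95% interval -1.01 to -0.33, adjusted p = 0.0016). The ornithine carrier Slc25a15 (log2 fold change 0.15, adjusted p = 0.0974), the glutamate carrier Slc25a22 (-0.02, adjusted p = 0.83) and the glycine carrier Slc25a38 (-0.07, adjusted p = 0.365) did not pass. Slc25a18, the other glutamate carrier, had 2 reads in all, and Slc25a2, the other ornithine carrier, had 71.

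Among the 3 tested carriers of citric acid cycle intermediates, 1 rose (33.3%, against 32.6% of all genes). Slc25a11 exchanges oxoglutarate for malate and is the partner of Slc25a12 in the malate-aspartate shuttle. It ran from 54.4 to 72.5 normalized CPM (median 61.3) in CP CML and from 65.9 to 82.4 (median 76.2) in BC CML. Only the highest CP CML mouse reached into the BC CML range. The log2 fold change was 0.29 (SE 0.06, adjusted p = 0.00039), opposite in sign to that of Slc25a12. In GENCODE 8.92% of its exon bases are shared with Rnf167 on the other strand, which had a log2 fold change of -0.24. The citrate exporter Slc25a1 had 15.0, 18.2 and 19.8 normalized CPM in CP CML and 17.0, 18.2 and 21.3 in BC CML, with overlapping groups. Its 95% interval ran from -0.09 to 0.22 (adjusted p = 0.476), which leaves out a change of 1 on the log2 scale in either direction. The dicarboxylate carrier Slc25a10 had a log2 fold change of -0.09 (adjusted p = 0.394), and the oxodicarboxylate carrier Slc25a21 had 12 reads in all.

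The single acylcarnitine carrier, Slc25a20, brings fatty acids into the matrix for oxidation. It ran from 20.1 to 32.6 normalized CPM (median 28.0) in CP CML and from 17.2 to 21.8 (median 20.1) in BC CML. The CP CML mice were widely spread, and the lowest of them sat within the BC CML range. The log2 fold change was -0.48 (SE 0.10, adjusted p = 0.000318), a mean that fell by 28.5%.

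Glutathione carriers bring the antioxidant into mitochondria. Slc25a39 rose, with 22.5, 25.4 and 28.6 normalized CPM (lowest, median, highest) in CP CML and 33.0, 34.1 and 38.3 in BC CML. All BC CML mice were above all CP CML mice (log2 fold change 0.46, SE 0.06, adjusted p = 1.18e-06). Slc25a40, its relative, ran from 33.3 to 45.3 (median 39.6) and from 39.0 to 47.3 (median 43.3), with a log2 fold change of 0.12 that did not pass (95% interval -0.03 to 0.26, adjusted p = 0.141).

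The iron carriers, mitoferrins that supply iron for heme and iron-sulfur clusters, did not pass. Slc25a37, the form that erythroid cells depend on, had 67.9, 72.6 and 83.4 normalized CPM in CP CML and 62.3, 67.0 and 76.2 in BC CML (log2 fold change -0.13, adjusted p = 0.0607). Slc25a28, the widely expressed form, had 37.0, 41.2 and 46.5 in CP CML and 34.6, 37.8 and 43.1 in BC CML (log2 fold change -0.13, adjusted p = 0.0902). Both overlapped between the groups.

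Of the 9 tested cofactor and nucleotide carriers, 1 rose and 3 fell (44.4% called, against 65.2% of all genes). Slc25a51 imports NAD+ into mitochondria and ran from 99.7 to 112 normalized CPM (median 106) in CP CML and from 120 to 133 (median 129) in BC CML. No mouse of one group reached the other (log2 fold change 0.28, SE 0.04, adjusted p = 3.35e-06). Slc25a32, the folate and FAD carrier that feeds mitochondrial one-carbon metabolism, fell. Its lowest, median and highest values were 33.9, 37.2 and 39.6 normalized CPM in CP CML and 25.4, 29.4 and 31.3 in BC CML. These ranges were also apart (log2 fold change -0.35, SE 0.05, adjusted p = 1.03e-05).

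Slc25a17 is named after its values were seen. This gene, a carrier of the peroxisomal rather than the mitochondrial membrane that takes CoA, FAD and NAD+, ran from 38.3 to 43.3 normalized CPM (median 41.4) in CP CML and from 31.1 to 36.5 (median 33.8) in BC CML, without overlap (log2 fold change -0.30, SE 0.05, adjusted p = 1.74e-05).

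The pyrimidine nucleotide carriers did not pass. Slc25a36 had 60.9, 69.3 and 76.7 normalized CPM in CP CML and 70.4, 73.0 and 84.8 in BC CML (log2 fold change 0.10, adjusted p = 0.10). Slc25a33 had 4.71, 5.12 and 6.94 in CP CML and 4.11, 4.80 and 5.20 in BC CML (log2 fold change -0.17, adjusted p = 0.171). The groups of each gene overlapped. Slc25a26, which imports S-adenosylmethionine and holds the only 3p 8mer, had a log2 fold change of 0.09 with a 95% interval of -0.12 to 0.30. The CoA carrier Slc25a42 (0.07, adjusted p = 0.613) and Slc25a16 (-0.15, adjusted p = 0.0857) did not pass either.

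Of 8 members given no cargo in the lists used here, 4 were tested. Slc25a53 (chrX:136981116-137038302) rose almost as much as Slc25a24. Its log2 fold change of 0.99 lay just under 1, so it is named after its values were seen. It ran from 29.0 to 37.7 normalized CPM (median 32.4) in CP CML and from 57.6 to 74.8 (median 61.9) in BC CML. The groups were well apart, and the mean rose from 32.8 ± 3.21 to 65.0 ± 7.33 (1.98-fold, SE of the log2 value 0.07, adjusted p = 1.82e-09). Its listed range holds Zcchc18 on the other strand, with 3769 bases in common and 262 to 777 reads per library. Zcchc18 had a log2 fold change of 0.90 (adjusted p = 4.71e-08), and GENCODE shows no shared exon bases. Whether the counting used strand is not given in the sources used here, so the part of reads from Zcchc18 in this value was not tested.

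Slc25a45, also named after its values were seen, ran from 36.4 to 43.9 normalized CPM (median 38.3) in CP CML and from 30.7 to 36.3 (median 33.3) in BC CML. The highest BC CML mouse lay just under the lowest CP CML mouse (log2 fold change -0.23, SE 0.05, adjusted p = 0.00106). Slc25a35 (0.19, adjusted p = 0.194) and Slc25a47 (-0.16, adjusted p = 0.50) did not pass, and 31.3% of the exon bases of Slc25a35 are shared with Rangrf on the other strand. The 4 untested members were Slc25a34 (19 reads in all), Slc25a43 (69 reads), and Slc25a48 and Slc25a54 (0 reads, which over the 250990150 reads of all libraries allows up to 0.0120 CPM by counting error). Slc25a54 lies 6566 bases from Slc25a24 on the same strand, so the carrier gene next to Slc25a24 was not detected.

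The uncoupling-protein-like carriers Slc25a14, Slc25a27 and Slc25a30 did not pass, with log2 fold changes of -0.01, -0.28 and -0.12 and adjusted p-values of 0.922, 0.105 and 0.153. Slc25a46, an outer membrane protein of the family involved in mitochondrial shape, had a log2 fold change of -0.04 with a narrow 95% interval of -0.12 to 0.04.

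Carriers with a shared cargo were then compared within each library, since a ratio of 2 genes does not depend on the scaling of the library. The log2 ratio of reads per kb, with 0.5 reads added, was compared for 6 pairs by permuting the group labels over all 3003 possible splits (exact and two-sided, smallest possible p 0.000333), and p-values were adjusted over the 6 pairs. As both genes of a pair appear above, the ratios restate those values on another scale. Slc25a24 over Slc25a25 had a mean log2 ratio of 0.83 ± 0.13 (SD) in CP CML and 2.08 ± 0.07 in BC CML, or 1.78-fold and 4.22-fold. Each BC CML mouse was above each CP CML mouse (difference 1.25, exact permutation p = 0.000333, adjusted p = 0.000999). Slc25a5 over Slc25a4 went from 1.81 ± 0.08 to 2.14 ± 0.09, or 3.50-fold to 4.42-fold. The groups were apart here although each gene alone overlapped (difference 0.34, exact permutation p = 0.000333, adjusted p = 0.000999).

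**Figure D4:**
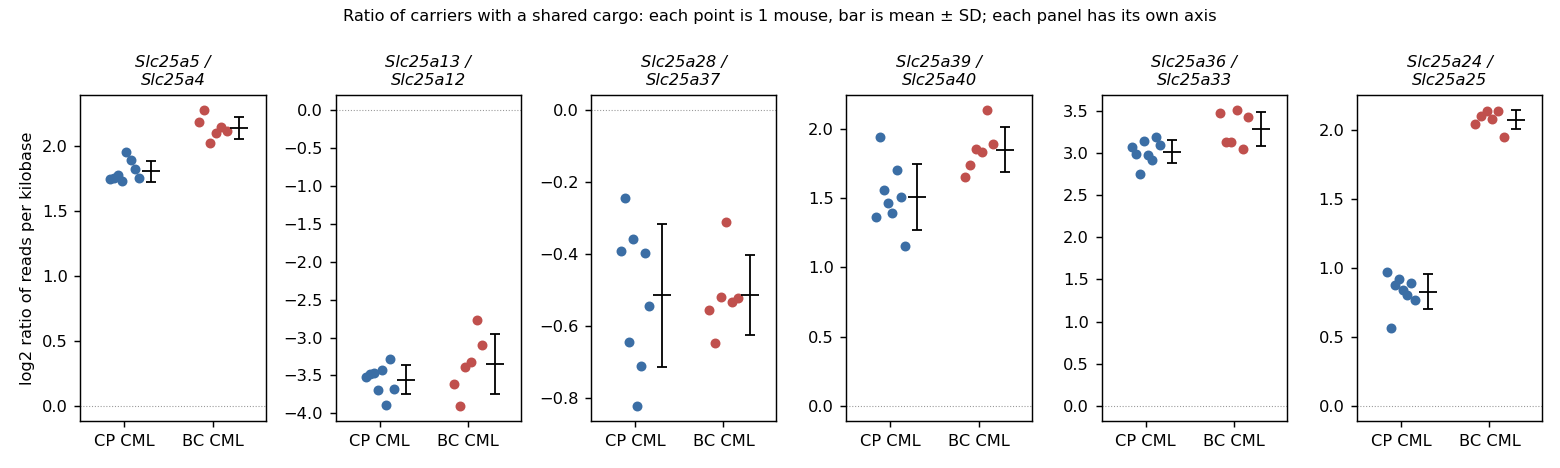
Log2 ratio of reads per kilobase (y axis, a separate axis for each panel) for 6 pairs of carriers with a shared cargo, with 1 point per mouse for 8 CP CML (blue) and 6 BC CML (red) mice and black bars for mean ± SD. Groups are apart for Slc25a5 over Slc25a4 and for Slc25a24 over Slc25a25 and overlap in the other 4 panels.

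The other pairs overlapped between the groups. Slc25a39 over Slc25a40 was 1.51 ± 0.24 in CP CML and 1.85 ± 0.16 in BC CML (difference 0.34, exact permutation p = 0.0127, adjusted p = 0.0220). Slc25a36 over Slc25a33 was 3.02 ± 0.14 and 3.28 ± 0.20 (difference 0.27, exact permutation p = 0.0147, adjusted p = 0.0220), a call lost without BC CML replicate 1 (0.23, adjusted p = 0.0501) or BC CML replicate 4 (0.22, adjusted p = 0.0524). Slc25a13 over Slc25a12 was -3.56 ± 0.19 and -3.35 ± 0.40 and did not pass (difference 0.21, exact permutation p = 0.223, adjusted p = 0.268). The mitoferrin ratio of Slc25a28 over Slc25a37 had means of -0.52 ± 0.20 and -0.52 ± 0.11 (exact permutation p = 0.998).

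All 3 tested family members under other symbols passed the test, as 65.2% of all genes did, with 2 higher and 1 lower (Mtch2, log2 fold change -0.15, adjusted p = 0.00652). Ucp2, an inner membrane carrier of the uncoupling protein group that is abundant in lymphocytes, rose from 471 ± 35.6 to 750 ± 29.8 normalized CPM (log2 fold change 0.67, adjusted p = 1.55e-09). Mtch1, an outer membrane member, rose from 44.3 ± 2.31 to 67.6 ± 3.77 (log2 fold change 0.61, adjusted p = 1.8e-09). For both genes all BC CML mice were above all CP CML mice.

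Of 13 tested genes of the machinery that inserts carriers into the inner membrane, 2 rose and 6 fell, a called share of 61.5% that is close to the 65.2% of all genes. The small TIM chaperone Timm8b rose (log2 fold change 0.64, adjusted p = 3.99e-07), and Agk, a lipid kinase that is also part of the TIM22 insertion complex, fell (log2 fold change -0.58, adjusted p = 2.21e-07). Of 16 tested genes for other transport across the inner membrane, 6 rose (37.5%, against 32.6% of all genes) and 1 fell (6.25%, against 32.7%), a called share of 43.8% against 65.2%. Abcb10, an ABC transporter that stabilizes the mitoferrin Slc25a37 in erythroid cells, rose from 6.80 ± 0.47 to 17.2 ± 1.05 normalized CPM (log2 fold change 1.34, adjusted p = 1.6e-11). Sfxn3, a sideroflexin of the serine transporter family, was the one that fell (log2 fold change -0.46, adjusted p = 1.64e-06). Of the 3 outer membrane pores, 1 rose (33.3%, near the 32.6% of all genes), Vdac1 (log2 fold change 0.33, adjusted p = 2.24e-06), and Vdac2 and Vdac3 did not pass.

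Enzymes on either side of the carriers were counted by pathway. In the citrate and malate-aspartate list, 3 of 6 rose and 2 fell (83.3% called, against 65.2% of all genes). Mdh2, the mitochondrial malate dehydrogenase, rose (log2 fold change 0.27, adjusted p = 1.03e-05), while Acly, which cleaves exported citrate to acetyl-CoA, fell (-0.24, adjusted p = 1.86e-05). Of 3 enzymes around the acylcarnitine carrier, 2 passed (66.7%, near the 65.2% of all genes) and Cpt2 did not. Cpt1a, which makes acylcarnitine at the outer membrane, fell (-0.55, adjusted p = 0.0296), and the carnitine acetyltransferase Crat rose (0.81, adjusted p = 3.22e-06). In the iron, heme and iron-sulfur list, 3 of 6 fell, including the ferrochelatase gene Fech (-0.34, adjusted p = 0.000119), and none rose; the called share of 50% is below that of all genes. All 4 tested mitochondrial folate enzymes passed, with 3 lower and 1 higher, where 65.2% of all genes passed and 32.7% were lower. Mthfd1l, which releases formate, fell (-0.64, adjusted p = 2.99e-06) as did the folate carrier Slc25a32, and the low-expressed Mthfd2l rose from 3.13 ± 0.46 to 5.72 ± 0.54 normalized CPM (0.87, adjusted p = 3.41e-06).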

How the data were processed

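Raw counts per gene were deposited by the authors: per the labels and the study's methods, mRNA libraries were made from total RNA (Kapa mRNA HyperPrep) and their paired reads were trimmed with Trimmomatic and FASTP, mapped to mm10 with STAR 2.6.0 and counted with HTSeq 0.11.1; the gene annotation and strand setting are not given in the sources used here. Groups were taken from the sample titles, 1 mouse per sample. Counts of all 14 libraries were fitted in edgeR 4.0.16 (R 4.3.3) with filterByExpr, TMM factors, robust glmQLFit and glmQLFTest, Benjamini-Hochberg adjustment over 12248 genes and a threshold of 0.05. Standard errors came from the fold change and the F statistic. Normalized CPM divide counts by the TMM-scaled total, and levels per kb use the length column of the table. The total counts per library were 15703702 to 19914531. The fit was repeated with DESeq2 1.42.0, with the likelihood ratio test of edgeR, with other scaling and filters, with a replicate block and without each library in turn; 1 more (replicates 1 to 6 with no block) was added after seeing the data.

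Members, gene lists and pairs were chosen with earlier results of these data known. Per-mouse values were given for members past the threshold with an absolute log2 fold change of at least 1, the 5 highest per kb, both genes of the 6 pairs, and Slc25a20, Slc25a1 and Slc25a32; genes of other lists were named for the same fold size or as the 2 with the lowest p. Some results are not reported here, but their genes remain in the counts. The fit was tested on simulated data: of 196 genes changed by 1 on the log2 scale in a simulated BC CML against CP CML comparison of 12174 genes, 91.3% were recovered with 13 other calls. The simulation changed few genes, each by 1, so it does not cover smaller changes or data in which 65.2% of genes are called. No pair of libraries in a group matched within counting noise (chi-square per degree of freedom 3.08 to 23.1). MicroRNA sites used GENCODE vM21 (GRCm38, the build of mm10), and mature microRNA sequences came from RefSeq.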

Additional observations from a re-analysis of the deposited data

Results flagged for a closer look

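Of 58 sets of values examined (23 carriers and 6 ratios in each group), 1 held a mouse that stood apart from the rest of its group, where chance gives about 1 in 20. Slc25a33, the pyrimidine nucleotide carrier, was 6.94 normalized CPM in CP CML replicate 3 against 5.51 in the next mouse.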

How the results depend on the processing

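The 8 other settings called 15 to 18 carriers against 17, with 5 to 6 higher and 10 to 12 lower, and leaving out 1 library called 16 to 18. Slc25a24, Slc25a53, Slc25a39, Slc25a51, Slc25a11, Slc25a12, Slc25a44, Slc25a32, Slc25a17, Slc25a3, Slc25a45, Slc25a20, Slc25a25 and Slc25a29 passed under every setting run. With the replicate block over replicates 1 to 6 the count was 15, with Slc25a5 (log2 fold change 0.14, adjusted p = 0.0508) and Slc25a4 (-0.20, adjusted p = 0.0745) not passing; with the same mice and no block it was 17. The exact sign-flip test of the ratios over 6 replicate numbers has a smallest p of 0.03125, and under this block 4 ratios of little changed size did not pass: 0.33 for Slc25a5 over Slc25a4, 0.31 for Slc25a36 over Slc25a33 and 1.25 for Slc25a24 over Slc25a25 (adjusted p = 0.0625 each) and 0.28 for Slc25a39 over Slc25a40 (adjusted p = 0.141). Same-numbered mice deviated from their group means with correlations of -0.32 to 0.39 (mean -0.03). Differently numbered mice were not compared in this way, so whether the numbers pair the mice is not settled. The near-zero ratio of Slc25a28 over Slc25a37 changed sign with the block (0.015) and between -0.044 and 0.038 on leaving out 1 library; the ratio of Slc25a36 over Slc25a33 lay between 0.22 and 0.31. Leaving out 1 library kept 16 or 17 of the 17 calls. Calls gained were those of Slc25a37 (gained without CP CML replicate 1, 2 or 8 or BC CML replicate 2, adjusted p = 0.0171 in the last, and with library size alone, adjusted p = 0.0318), Slc25a13 (gained without CP CML replicate 6 or BC CML replicate 5 or 6), Slc25a16 (without CP CML replicate 6, -0.19, adjusted p = 0.0256) and Slc25a28 (gained without CP CML replicate 5 or BC CML replicate 4). The causes were not tested. Depth limits the 9 untested carriers, which had 0 to 71 reads in all.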
